A study of Homo sapiens with 12 samples.

Results

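The genes described here are FN1, VIM, TNC, CD44, SNAI2, LUM, EDIL3 and MAMDC2, 8 genes of mesenchymal cells or of the extracellular matrix that stood high in the gastric cancer cell line MKN1. They were chosen by their measured levels in MKN1 against AGS and SNU601 on these same arrays, so their differences between lines are given as a description without a test, and the tests concern the compounds, which the choice did not use. They are 8 of 14884 gene symbols that had a transcript cluster on the array, and 8 of the 8930 genes tested. MKN1, AGS and SNU601 are established human gastric cancer lines, MKN1 coming from an adenosquamous carcinoma. Each line was grown in medium with fetal calf serum and exposed to Rhosin, a small molecule that inhibits the GTPase RhoA, to JK136 or JK139, known here by code name alone, or to the solvent DMSO. The 12 combinations had 1 Affymetrix Human Gene 2.0 ST array each, giving 4 arrays per line and 3 per treatment. Doses and exposure times are not stated in the labels, and nothing in them says that treatments of 1 line were separate cultures, so the p-values measure the spread between these samples, which may be technical.

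In epithelial-mesenchymal transition, epithelial cells lose tight contacts and gain motility and matrix production. Transcription factors of the SNAIL, ZEB and TWIST families repress epithelial genes in this process, and vimentin filaments, fibronectin and tenascin C are among the products that mark the mesenchymal state. RhoA acts on the actin cytoskeleton through its effector kinases, and changes in actin feed back on transcription through the serum response factor SRF. Carcinoma lines of the stomach range from those with a full epithelial programme to those that carry part of the mesenchymal one.

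The promoters of these genes were searched for sequence features that the choice of genes did not use. RefSeq promoter sequences (GRCh38.p14) were available for 6 of the 8 genes, and the 250 bases before each start site were searched on both strands for 6 motifs. They were CAGGTG, an E-box that SNAI factors bind, TGANTCA, the AP-1 site, GGAATG, the site of TEAD factors, TGACGTCA, the cyclic AMP response element, TATAAA, the TATA box, and the CArG box of SRF by its name. The promoters of 3 genes held a match and are printed with the matches in capitals, 5′ to 3′ on the strand of the gene. FN1 lies at chr2:215436069-215436318 on the minus strand, the first start site of EDIL3 at chr5:84384881-84385130 on the minus strand, and the first start site of MAMDC2 at chr9:70043331-70043580 on the plus strand.
FN1: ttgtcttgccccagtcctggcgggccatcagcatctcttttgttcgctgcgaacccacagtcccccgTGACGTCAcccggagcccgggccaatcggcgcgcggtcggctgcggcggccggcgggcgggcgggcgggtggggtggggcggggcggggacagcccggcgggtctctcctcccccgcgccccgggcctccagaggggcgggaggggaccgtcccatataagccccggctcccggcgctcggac
EDIL3: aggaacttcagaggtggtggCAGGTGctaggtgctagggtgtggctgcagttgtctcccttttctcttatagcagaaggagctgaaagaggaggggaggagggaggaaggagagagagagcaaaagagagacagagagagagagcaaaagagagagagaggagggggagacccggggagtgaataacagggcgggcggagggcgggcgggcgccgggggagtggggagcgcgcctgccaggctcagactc
MAMDC2: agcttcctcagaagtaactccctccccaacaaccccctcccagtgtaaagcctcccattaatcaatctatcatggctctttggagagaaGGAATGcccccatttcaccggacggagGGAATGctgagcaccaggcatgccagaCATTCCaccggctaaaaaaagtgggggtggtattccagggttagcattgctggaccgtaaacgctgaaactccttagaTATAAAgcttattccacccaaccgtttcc

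The FN1 promoter held a cyclic AMP response element whose first base lies at position −183 from the start site, a motif found in 1.65% of all 35116 promoters of the same length. The EDIL3 promoter held an E-box at −230, as 17.5% of promoters did, and the window of its second start site overlaps this one and holds the same E-box. The MAMDC2 promoter held the TEAD site at −161 and −134, and its reverse complement at −107, a motif that 11.9% of promoters held at least once. It also held a TATA box at −29, as 10.7% did. The second MAMDC2 start site and the windows of VIM, TNC and CD44 held no exact match to any of the 6 motifs. Variants, such as the letters tatataag in TNC and catataag in FN1, were not counted, so a TATA box of other letters is not excluded. The AP-1 site occurred in 6.57% of all promoters and the CArG box in 1.16%, and neither occurred in the 8 windows searched. These matches are letters in a window, and factor binding was not measured.

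All 8 genes were higher on each of the 4 MKN1 arrays than on any of the 8 arrays of the other lines, which the choice of genes makes no finding. Values are log2 signals after robust multi-array average (RMA) processing. Genes with a mean over the 12 arrays under 4.61, the 40th percentile of all symbols, were left out of the tests, and all 8 genes passed. Their passing rests on MKN1 for 7 of them, whose means in AGS and in SNU601 both lay under 4.61. CD44 alone was above that level in all 3 lines.

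**Figure D1:**
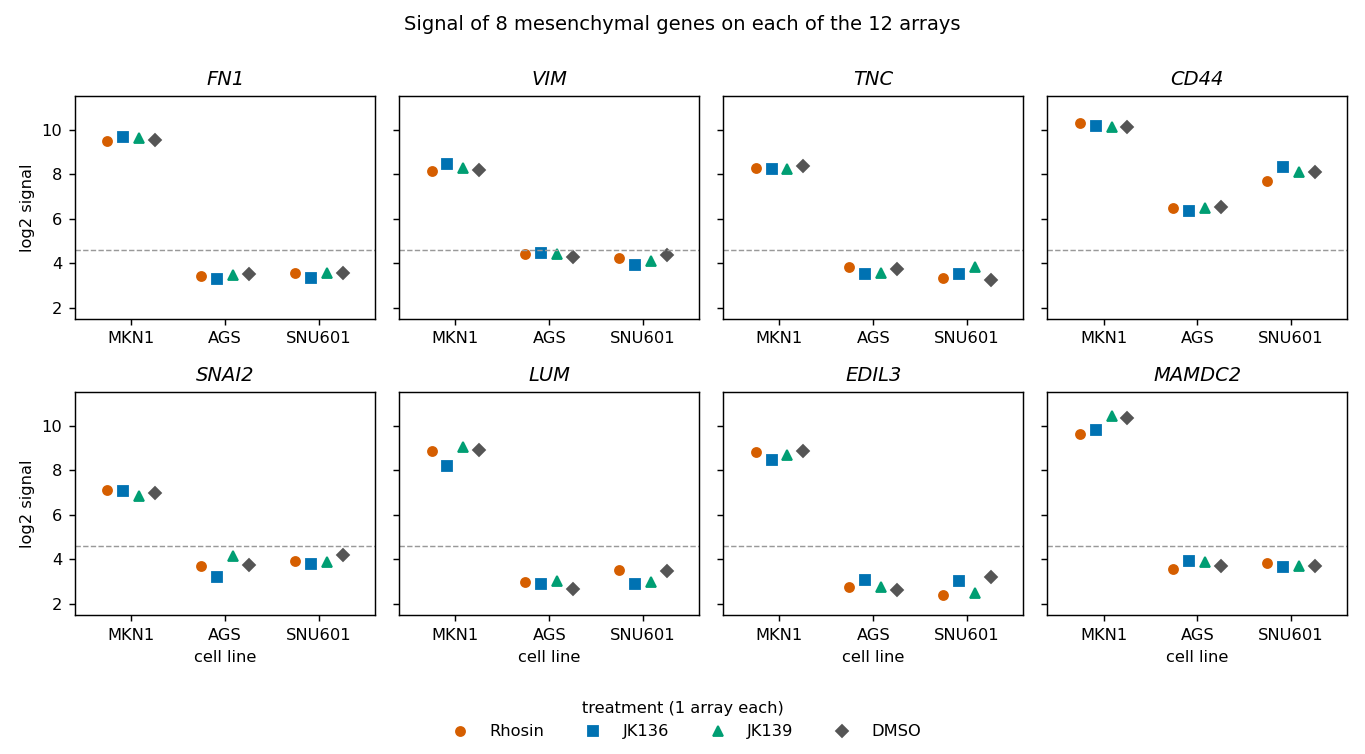
Log2 signal of each of the 8 genes on the 12 arrays, with 1 panel per gene, the lines on the horizontal axis and 1 symbol per treatment. The dashed line marks 4.61, the filter on means. The 4 MKN1 symbols sit above all others in each panel, CD44 is the gene with AGS and SNU601 above the dashed line, and in the other panels both of these lines lie beneath it.

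Among the matrix genes, FN1 codes for fibronectin, the glycoprotein that integrins bind on the cell surface (transcript cluster 16908037, chr2:215360865-215436068, GRCh38.p14 gene span in RefSeq). It measured 9.49 with Rhosin, 9.68 with JK136, 9.64 with JK139 and 9.55 with DMSO in MKN1. The same treatments gave 3.42, 3.30, 3.46 and 3.49 in AGS, and 3.55, 3.33, 3.55 and 3.58 in SNU601. Its level in MKN1 was 9.59 ± 0.08 (mean and SD, n = 4 arrays), against 3.42 ± 0.09 in AGS and 3.50 ± 0.11 in SNU601, and the ranges of AGS and SNU601 overlapped. The MKN1 mean was higher by 6.17 than that of AGS and by 6.09 than that of SNU601 on the log2 scale.

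TNC codes for tenascin C, a matrix protein of developing and injured tissue (cluster 17097661, chr9:115019575-115118157). It measured 8.26, 8.22, 8.22 and 8.37 in MKN1 with Rhosin, JK136, JK139 and DMSO in that order. In AGS these treatments gave 3.81, 3.52, 3.54 and 3.72, and in SNU601 3.32, 3.51, 3.83 and 3.26. The 4 MKN1 values lay within 0.154 of each other, the narrowest range of the 8 genes in that line. TNC was higher by 4.62 in MKN1 than in AGS and by 4.79 than in SNU601, and AGS and SNU601 overlapped.

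EDIL3, a secreted protein that binds integrins (cluster 16997816, chr5:83940554-84384880), had 8.84, 8.46, 8.69 and 8.84 in MKN1 with Rhosin, JK136, JK139 and DMSO. It had 2.77, 3.06, 2.74 and 2.64 in AGS, and 2.39, 3.01, 2.49 and 3.21 in SNU601. The JK136 array was the low one in MKN1, and AGS and SNU601 overlapped. The differences of MKN1 were 5.90 from AGS and 5.93 from SNU601.

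LUM codes for lumican, a small leucine-rich proteoglycan that organises collagen fibrils (cluster 16768406, chr12:91102629-91111494). It had 8.87, 8.19, 9.06 and 8.91 in MKN1 with Rhosin, JK136, JK139 and DMSO, so that the JK136 array stood lowest. In AGS the values were 2.98, 2.89, 3.04 and 2.67, and in SNU601 3.50, 2.90, 2.97 and 3.46. MKN1 was higher by 5.86 than AGS and by 5.55 than SNU601, which overlapped.

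MAMDC2 codes for a secreted proteoglycan with MAM domains (cluster 17085760, chr9:70043581-70226972). It had 9.61 with Rhosin, 9.81 with JK136, 10.44 with JK139 and 10.37 with DMSO in MKN1. The Rhosin and JK136 arrays were low and the JK139 and DMSO arrays were high. AGS had 3.56, 3.94, 3.86 and 3.71, and SNU601 had 3.84, 3.67, 3.71 and 3.69 with the same treatments. The differences of MKN1 were 6.29 from AGS and 6.33 from SNU601, the largest of the 8 genes, and AGS and SNU601 overlapped.

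CD44 is the cell surface receptor for hyaluronan (cluster 16723614, chr11:35139171-35232402). With Rhosin, JK136, JK139 and DMSO it measured 10.28, 10.18, 10.12 and 10.11 in MKN1. These treatments gave 6.46, 6.36, 6.46 and 6.53 in AGS, and 7.67, 8.34, 8.10 and 8.10 in SNU601. Its order was MKN1, SNU601 and AGS with no overlap between lines, at 10.17 ± 0.08, 8.05 ± 0.28 and 6.45 ± 0.07 (SD, n = 4 arrays each). CD44 is thus not restricted to MKN1 among these lines, and its margin over the next line, 2.12, was the smallest of the 8 genes.

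VIM codes for vimentin, the intermediate filament of mesenchymal cells (cluster 16702767, chr10:17228241-17237593). It had 8.12, 8.47, 8.25 and 8.20 in MKN1 with Rhosin, JK136, JK139 and DMSO, against 4.39, 4.47, 4.40 and 4.27 in AGS and 4.25, 3.92, 4.08 and 4.38 in SNU601. Its JK136 array was the highest in MKN1 and the lowest in SNU601. VIM was the one gene of the 8 with more than 1 cluster. The other 2 clusters annotated to it had MKN1 means of 6.29 and 6.43, against 4.92 and 3.49 in AGS and 4.60 and 3.55 in SNU601, so all 3 were highest in MKN1 with unequal differences.

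SNAI2, also called SLUG, is a zinc finger repressor of epithelial genes (cluster 17077004, chr8:48917598-48921429). It had 7.11, 7.05, 6.85 and 6.96 in MKN1 with Rhosin, JK136, JK139 and DMSO. It had 3.71, 3.18, 4.15 and 3.76 in AGS, and 3.93, 3.78, 3.89 and 4.20 in SNU601. The MKN1 mean was higher by 3.29 than that of AGS and by 3.04 than that of SNU601, and AGS, where the 4 arrays had an SD of 0.40, overlapped with SNU601.

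The margin of a gene is its MKN1 mean minus the higher of its AGS and SNU601 means. Ranked by it among the 8930 tested genes, MAMDC2 was 3rd, FN1 4th, EDIL3 5th, LUM 12th, TNC 19th, VIM 39th, SNAI2 65th and CD44 126th. The other genes of largest margin were CD38, an ectoenzyme that consumes NAD, with 6.77, HLTF, a DNA translocase of the SWI/SNF family, with 6.59, RASSF8 with 5.78, the Nudix hydrolase gene NUDT19 with 5.76 and IGFBP3, which binds insulin-like growth factors, with 5.76. None of these 5 is a mesenchymal marker in the lists used here.

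Likeness of pattern was measured as the root mean square distance between a gene's 12 values, centred on their mean, and the mean centred profile of the 8 genes. The values were not scaled, so the size of a gene's difference between lines counts in this distance as well as its shape. The nearest of the other tested genes were DAPK1, a calmodulin-regulated kinase, at 0.146 log2 units, ANTXR1, a matrix-binding receptor also used by anthrax toxin, at 0.150, and PEG10, a gene of retrotransposon origin, at 0.175. PNLDC1 followed at 0.183, LOC650226 at 0.199, CNTNAP3 at 0.244, GAGE13 at 0.256, SCRN1 at 0.279, EREG, an EGF receptor ligand, at 0.290 and GAGE12G at 0.295. GAGE genes are near-identical copies on chromosome X, and which of them gave the signal is uncertain. Of the 8 genes themselves TNC was nearest to their mean profile at 0.249 and CD44 farthest at 1.08.

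Rhosin against DMSO asks whether an inhibitor of RhoA moves these genes. None of the 8 genes passed an adjusted p under 0.05 in limma, and 0% of the 8930 genes did. Under an unadjusted p of 0.05, 0 of the 8 and 6.27% of all genes passed. The log2 differences ran between −0.25 and 0.10, with 2 genes higher and 6 lower and a median of −0.06, beside −0.02 over all tested genes, of which 45.0% were higher. These differences average the 3 lines, with the line as a fixed term, and for 7 of the genes AGS and SNU601 entered with levels under 4.61.

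FN1 differed between Rhosin and DMSO by −0.06 in MKN1, −0.07 in AGS and −0.03 in SNU601, with a mean of −0.05 ± 0.10 (SE, 3 lines) and a limma adjusted p of 0.935. It was the one gene of the 8 that lay lower with Rhosin in all 3 lines, by less than its SE. CD44 differed by 0.18 in MKN1, −0.06 in AGS and −0.43 in SNU601, with a mean of −0.11 ± 0.14 and an adjusted p of 0.916. VIM differed by −0.08, 0.12 and −0.14 in the same lines (adjusted p 0.980), and TNC by −0.11, 0.09 and 0.06 (adjusted p 0.993). SNAI2, with 0.15, −0.05 and −0.28, and LUM, with −0.04, 0.31 and 0.04, likewise had both signs (adjusted p 0.966 and 0.934).

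MAMDC2 had the lowest mean difference of the 8 with Rhosin, −0.25 ± 0.17 (adjusted p 0.845), which came from −0.76 in MKN1 beside −0.15 in AGS and 0.15 in SNU601. EDIL3 had −0.23 ± 0.19 (adjusted p 0.869), which came from −0.81 in SNU601, where the gene lay at 2.39 with Rhosin and 3.21 with DMSO, both far under 4.61. In MKN1, where EDIL3 was well measured, the difference between Rhosin and DMSO was −0.0035. Without SNU601 the mean difference of EDIL3 was 0.06, and without MKN1 that of MAMDC2 was −0.003.

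The 95% confidence intervals of the Rhosin differences, not adjusted over genes, reached 0.209 to either side for FN1, between 0.290 and 0.312 for VIM, CD44 and TNC, and between 0.378 and 0.412 for MAMDC2, SNAI2, LUM and EDIL3. The lowest bound was −0.64, for EDIL3, and the highest was 0.50, for LUM. Smaller responses common to the lines, and responses of 1 line alone, are not shown to be absent by these intervals.

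**Figure D2:**
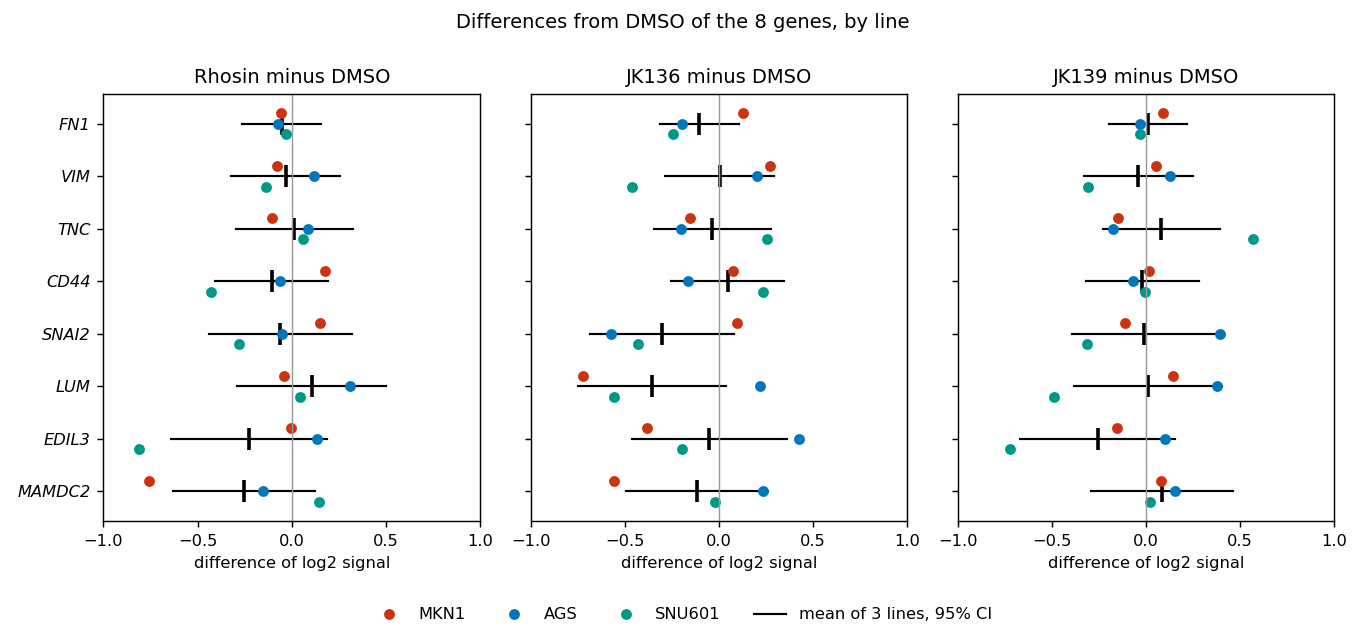
Difference of log2 signal between each compound and DMSO for the 8 genes, with a point per line, a tick at the mean of 3 lines and a bar for its 95% confidence interval from limma. Every bar crosses 0, and the points farthest to the left with Rhosin are EDIL3 in SNU601 at −0.81 and MAMDC2 in MKN1 at −0.76.

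With JK136 against DMSO, 0 of the 8 genes and 0% of all genes passed the adjusted threshold in limma, and 0 of the 8 and 5.25% of all genes passed an unadjusted p of 0.05. LUM had the largest difference, −0.35 ± 0.18 (adjusted p 0.902), with −0.72 in MKN1, 0.22 in AGS and −0.56 in SNU601. SNAI2 followed with −0.30 ± 0.17 (adjusted p 0.906), of which MKN1, the line where it lay above 4.61, gave 0.10, AGS −0.57 and SNU601 −0.43. The other 6 genes lay between −0.12 and 0.05. With JK139 against DMSO, 0 of the 8 genes and 0% of all genes passed, against 2.44% of all genes and 0 of the 8 at an unadjusted p of 0.05. The differences lay between −0.26 for EDIL3 and 0.08 for MAMDC2, which lay higher in all 3 lines by between 0.02 and 0.15. In AGS and SNU601 MAMDC2 lay under 4.61. The comparisons with DMSO share their DMSO arrays.

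The compounds were compared in 3 pairs, without knowledge of whether doses and times matched, and p-values were adjusted over all genes within each pair. In none of the 3 pairs did any of the 8 genes pass, and 0% of all genes passed in each. LUM had a log2 difference of −0.46 ± 0.18 for JK136 minus Rhosin (unadjusted p 0.0261, limma adjusted p 0.491). The difference was negative in all 3 lines, with −0.68 in MKN1, −0.09 in AGS and −0.60 in SNU601. LUM lay under 4.61 in AGS and SNU601 with both compounds, and it passed the filter through MKN1. It was 1 of the 8 genes at an unadjusted p under 0.05 in that pair, where 9.09% of all genes reached it. In JK139 against Rhosin 0 of the 8 and 7.42% of all genes reached it, and in JK139 against JK136 0 of the 8 and 5.53%. The largest differences in these pairs were 0.34 ± 0.17 for MAMDC2 in JK139 against Rhosin (adjusted p 0.690) and 0.36 ± 0.18 for LUM in JK139 against JK136 (adjusted p 0.891).

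A model of line, any compound against DMSO and their interaction asked whether the mean response to the 3 compounds differed between lines (limma F test). The 3 compounds served as replicates within a line, so their differences from each other form the spread. A response of 1 line to 1 compound alone was not tested by this model. None of the 8 genes passed (adjusted p 0.9999 for each), nor did any of all genes (0%), and 0 of the 8 and 2.73% of all genes had an unadjusted p under 0.05. The mean difference of the 3 compounds from DMSO was −0.41 in MKN1, 0.08 in AGS and 0.05 in SNU601 for MAMDC2. It was −0.18, 0.22 and −0.58 for EDIL3 in the same lines.

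Because MKN1 is the line where all 8 genes are well above the filter, its 4 arrays were also described alone. MAMDC2 was 1.69-fold lower with Rhosin than with DMSO, and 0.715% of the 8526 genes above 4.61 in MKN1 were at least 1.5-fold lower. LUM was 1.65-fold lower with JK136 than with DMSO, and 0.786% of these genes were at least 1.5-fold lower. MAMDC2 was 1.47-fold lower with JK136, short of that size. With JK139 0 of the 8 genes reached it, beside 0.563% of these genes. At least 1.5-fold higher were 0 of the 8 with each compound, beside 0.645% of these genes with Rhosin, 0.739% with JK136 and 0.551% with JK139. Each of these is a difference between 2 arrays with no replicate.

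Over the 4 MKN1 arrays LUM had an SD of 0.39 and MAMDC2 of 0.41, larger than 99.2% and 99.4% of the 8526 genes. The median SD was 0.11 over these genes, and 0.09 over the 2647 of them whose MKN1 mean was at or above that of SNAI2. FN1, TNC, CD44 and SNAI2 had SDs between 0.07 and 0.11, VIM had 0.15 and EDIL3 0.18. LUM and MAMDC2 thus varied far more between treatments of 1 line than FN1 and TNC did, on single arrays.

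**Figure D3:**
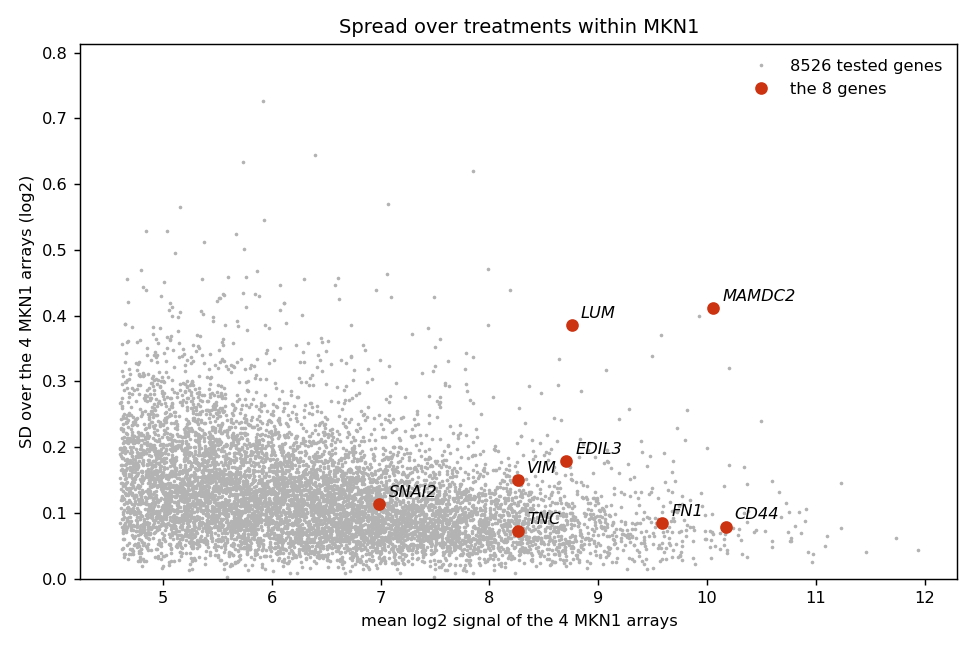
SD over the 4 MKN1 arrays against their mean log2 signal for the 8526 tested genes above 4.61 in MKN1 (grey points), with the 8 genes as labelled points. LUM and MAMDC2 lie near 0.4, above nearly all genes of like signal, while FN1, TNC and CD44 lie under 0.1.

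Other genes of the same roles came from 11 lists, made by role and not by how their genes responded, though with earlier results of these data known. They held 173 genes that are not among the 8, of which 109 had a cluster and 78 passed the filter. With Rhosin 0 of the 78 passed the adjusted threshold (lowest adjusted p 0.694), 44 lay higher and 34 lower, and the median was 0.03. At an unadjusted p under 0.05 there were 8 of the 78 (10.3%) with Rhosin, beside 6.27% of all genes, 2 (2.56%) with JK136, beside 5.25%, and 1 (1.28%) with JK139, beside 2.44%. Between lines, a listed gene was counted as higher or lower in MKN1 when limma's adjusted p was under 0.05 against both AGS and SNU601. Of all tested genes 22.9% were higher and 21.1% lower by this count, so that a changed gene is common between these lines. The spread behind these tests is what remains between the treatments of a line after the mean effect of each treatment is removed.

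**Figure D4:**
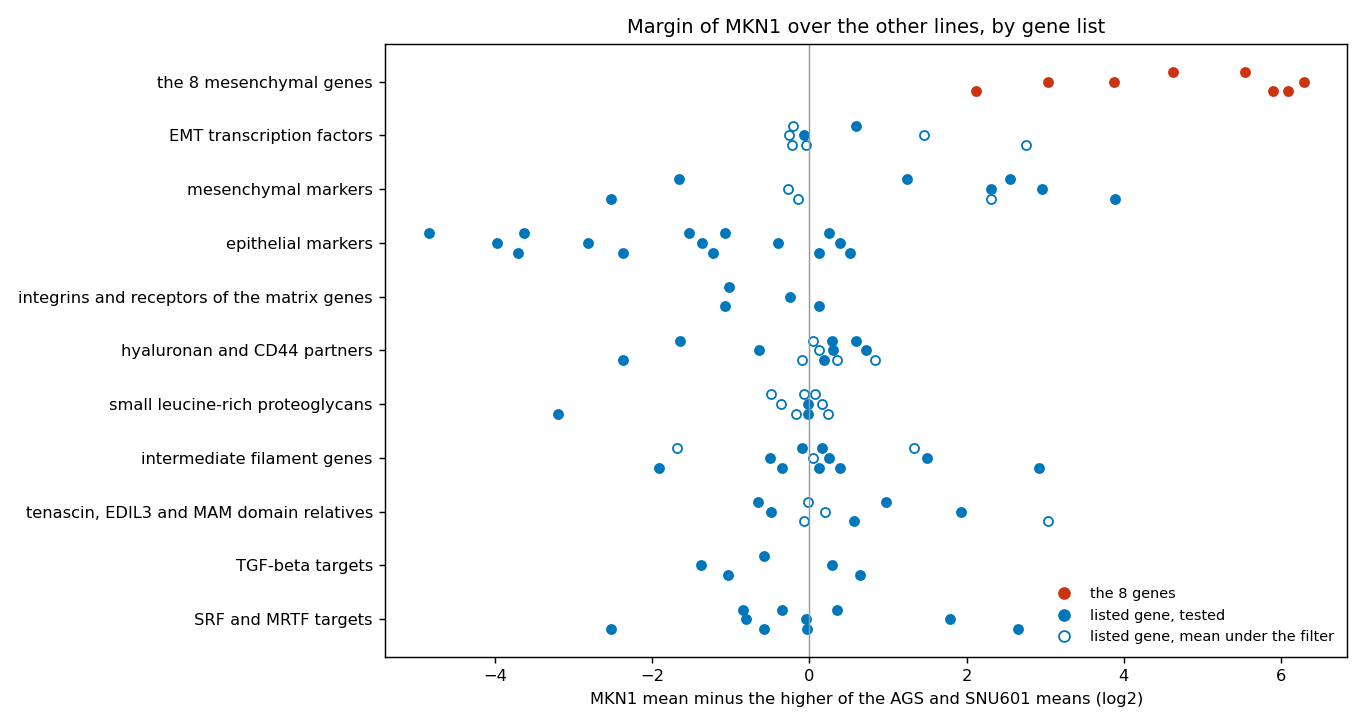
Margin of MKN1 over the higher of AGS and SNU601 (log2) for the 8 genes and for the genes with a cluster in 10 of the lists, 1 point per gene and 1 row per list. Filled points are tested genes and open points had means under the filter. The 8 genes lie between 2.12 and 6.29, most epithelial markers lie left of 0, and the small leucine-rich proteoglycans other than lumican lie near or left of 0. The row of integrins and receptors holds no integrin gene.

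Of the mesenchymal markers, 28 were listed and 7 tested. MKN1 was higher in 5 of them and lower in 1. FBN1, the microfibril protein fibrillin 1, had 7.52 ± 0.12 in MKN1, against 3.62 ± 0.07 in AGS and 3.43 ± 0.17 in SNU601 (SD, n = 4 arrays). AXL, a receptor kinase, was higher by 3.52 than in AGS and by 2.97 than in SNU601, and the matrix cross-linking enzyme LOXL2 by 2.67 and 2.55. The filter drew on the mean over all arrays, so a marker such as FBN1, low in AGS and SNU601, passed it through MKN1. Without the filter 6 of the 10 with a cluster were higher and 1 lower, beside 2665 and 1960 of all 14884 genes. TAGLN, an actin-binding protein of smooth muscle, was lower in MKN1, with differences of −2.53 from AGS and −0.78 from SNU601. CALD1, caldesmon, was lower in MKN1 than in AGS (−1.66) and had a difference of 0.16 from SNU601 (limma adjusted p 0.357). Mesenchymal markers thus did not all stand high in MKN1.

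Of 9 other transcription factors of the transition, 8 had a cluster and 2 were tested. GSC, a homeobox factor, was higher in MKN1 by 0.59 than in AGS and by 0.75 than in SNU601. ZEB1, a repressor of epithelial genes, had 6.05 ± 0.18 in MKN1, against 3.29 ± 0.22 in AGS and 3.30 ± 0.09 in SNU601, and fell under the filter because its mean over the 12 arrays was low. SNAI1, the relative of SNAI2, had 4.92 ± 0.19 in MKN1, 4.98 ± 0.26 in AGS and 4.50 ± 0.10 in SNU601, and was not counted. TCF4, a basic helix-loop-helix factor, had 5.48 ± 0.35 in MKN1, against 4.01 ± 0.19 in AGS and 3.94 ± 0.16 in SNU601, and was likewise under the filter. ZEB2, TWIST1, TWIST2 and PRRX1 had means under 4.61 in all 3 lines.

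Epithelial markers ran the other way for 11 of 15 tested, with 3 higher in MKN1. ESRP1, a splicing factor of epithelial cells that acts on CD44 transcripts among others, had 4.11 ± 0.23 in MKN1, against 8.95 ± 0.31 in AGS and 8.86 ± 0.05 in SNU601. The claudin gene CLDN7 was lower in MKN1, with differences of −3.57 from AGS and −3.97 from SNU601, as was that of the adhesion molecule EPCAM, with −3.55 and −3.70. The median margin of the 15, all that had a cluster, was −1.36, beside −0.14 over all tested genes. The keratin genes KRT18 and KRT19 and the claudin gene CLDN3 were the 3 higher ones, so that keratins of simple epithelium and vimentin were both high in MKN1. The splice forms of CD44 were not measured here. With Rhosin, ESRP1 had a difference of 0.31 ± 0.12 (adjusted p 0.717).

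Among the intermediate filament genes, the keratin genes KRT7, with 7.01 ± 0.22 in MKN1, 4.09 ± 0.38 in AGS and 3.79 ± 0.26 in SNU601, and KRT14 were higher in MKN1, and NES, nestin, was lower, with differences of −1.92 from AGS and −1.03 from SNU601. In this list 4 of 10 tested genes were higher and 1 lower. KRT7 lay under 4.61 in AGS and SNU601, so it passed the filter through MKN1. Without the filter 5 of the 13 with a cluster were higher and 1 lower, beside 2665 and 1960 of all 14884 genes. Lumican's own family held no other gene that was higher in MKN1. Of 3 tested, FMOD, fibromodulin, was lower in MKN1, with differences of −3.19 from AGS and −1.21 from SNU601, while BGN and PRELP were not counted.

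Of the partners of CD44, 4 of 8 tested were higher in MKN1 and 1 lower, among them MSN (moesin) by 0.72 and 0.76 over AGS and SNU601 and EZR (ezrin) by 0.59 and 0.70, which link CD44 to actin. Of the integrins and other receptors of the matrix genes, 4 of 13 had a cluster and were tested, EGFR, ANXA2, SDC1 and SDC4. No integrin gene was among them. Of these 4, 0 were higher in MKN1 and 1 was lower, and EGFR had 0.43 ± 0.15 with Rhosin (adjusted p 0.694). Among relatives of TNC, EDIL3 and MAMDC2, TNXB, tenascin X, was higher by 2.31 than in AGS and by 1.93 than in SNU601, and MFGE8, a relative of EDIL3, was lower, with −0.48 and −0.40. In this list 3 of 5 were higher and 1 lower.

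Of the targets of TGF-beta 2 of 5 tested were higher in MKN1 and 1 lower. Of the actin-regulated SRF targets 3 of 10 were higher and 4 lower, with TGFB1I1 higher by 2.65 against either line. RHOA had 9.98 in MKN1, 10.08 in AGS and 10.01 in SNU601. With Rhosin, RHOA differed by 0.03 ± 0.08, RHOB by 0.18 ± 0.19 and RHOC by −0.07 ± 0.13 (adjusted p between 0.897 and 0.957). RhoA activity was not measured on these arrays.

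The cell type labels were checked with fixed markers. Of 5 epithelial markers CDH1 had no cluster, and the other 4 lay above 4.61 in each line. EPCAM had 6.49 in MKN1, against 10.04 in AGS and 10.19 in SNU601, while KRT8, KRT18 and KRT19 had their highest means in MKN1. Fibroblast markers with a cluster were 2 of 8, DCN (decorin) at 1.96 in MKN1, 1.90 in AGS and 2.13 in SNU601, and THY1 at 4.48, 4.63 and 4.60. Endothelial markers lay under 4.61 in all lines (3 of 4 with a cluster), and of 2 leukocyte markers CD14 had 4.67 in MKN1, against 3.33 in AGS and 3.46 in SNU601, and CD68 had 8.65, against 6.14 and 8.33. Their part in the differences was not tested. Of 4 gastric markers with a cluster, 0 lay above 4.61 in MKN1, 1 in AGS and 3 in SNU601. TFF1 lay just under that level in MKN1, at 4.60. In such bulk RNA, fewer cells that express a gene and less RNA per cell cannot be told apart.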

How the data were processed

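RNA from 12 samples was measured on Affymetrix Human Gene 2.0 ST arrays. The deposited values are log2 signals per transcript cluster, made by the authors with RMA in Affymetrix Expression Console, per the submitters' processing notes, with versions not given in the sources used here. No reads exist, so the number of arrays limits the precision. The table held 53617 clusters, with array medians between 4.14 and 4.20. Pearson's r over clusters was 0.978 to 0.988 within a line and 0.927 to 0.960 across lines.

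Of the clusters 16098 had 1 gene symbol in the platform annotation (0 had several, 37519 none), matched to RefSeq by gene ID for the current symbol. Each symbol took its cluster of highest mean, and symbols with a mean under the 40th percentile were left out. Treatment and line were fixed terms in limma 3.58.1 (R 4.3.3) over all 12 arrays with 6 residual degrees of freedom, and p-values were adjusted by Benjamini-Hochberg over all 8930 genes. The line pairs the treatments. Promoters were searched in Python 3.11.15. The genes and the lists were chosen with earlier results of these data known. By rule, the text names all 8 genes, the 5 others of largest margin, the 10 nearest in pattern, RHOA, RHOB and RHOC, and up to 3 listed genes at either end of margin and up to 2 at either end of the Rhosin difference per list. Fixed cell type markers and a few listed genes that complete a count were named as well, after their values were seen. Alternatives covered the filter, normalization, prior, array weights, the line block, the choice of cluster and leaving out arrays, lines or treatments. The counts of 1 of the 11 lists are not reported here on their own.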

Additional observations from a re-analysis of the deposited data

Results flagged for a closer look

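Each of the 8 genes was examined within each line for 1 array far from the other 3 (Dixon's test at the 95% level, 24 groups of 4 arrays). FN1 in SNU601 was the 1 group past the critical value, with 3.33 on the JK136 array, against 3.55 to 3.58 on the other arrays. All 4 values lie under the filter of 4.61. Chance alone marks about 1 in 20 such groups.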

How the results depend on the processing

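Across the alternatives, 0 of 710 values of the 8 genes, in the comparisons of treatments and in the interaction, passed the adjusted threshold (lowest adjusted p 0.453). Of the 710, 55 changed sign, all of them differences between treatments, because the interaction values are F statistics and cannot change sign. Of the 146 differences between Rhosin and DMSO, 16 changed sign. The count of called genes was 0 for each comparison of treatments and for the interaction under each alternative, except that without the filter 1 of 14884 genes was called for JK136 against DMSO, MIR329-1, with a mean of 4.33. Its name was chosen after its values were seen. The median Rhosin difference of the 8 genes was −0.18 with a filter at the 60th percentile, which kept 2 of them, CD44 and MAMDC2. Leaving out a line or an array moved it between −0.10 and 0.034, the highest value being that without SNU601. Without the line as a replicate block it was −0.06. With 1 array per line and treatment, leaving out the block cannot change this value, so this is no check of it. The unblocked fit adds the differences between lines to the spread, and it too called 0 genes. Counts of genes that differ between lines stayed within 1.5 times the reported ones. The interaction has no value without the DMSO arrays. Without the filter, of 8 transcription factors of the transition 3 were higher in MKN1 than in both other lines, beside 2665 of all 14884 genes. The comparison within MKN1 alone, counted at 1.5-fold, was chosen after seeing the data. Of the 8 genes, 7 had means under 4.61 in AGS and SNU601. Background was not measured, and at such low signal their values may bear little on a response.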
